A study of Mus musculus with 6 samples.

Results

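The genes described are the 6 mouse DNA topoisomerase genes Top1, Top1mt, Top2a, Top2b, Top3a and Top3b and the 2 tyrosyl-DNA phosphodiesterase genes Tdp1 and Tdp2. They were taken by symbol from the 38293 genes of the count table. All 8 had enough counts to be among the 14642 genes tested. RNA was sequenced from primary cortical neurons of wild-type Swiss-Webster mice, dissociated on embryonic day 16 and grown to day 13 in vitro. The control group (3 libraries) was untreated. The other group (3 libraries) received 50 µM NMDA, an agonist of a class of glutamate receptors, for 10 minutes and was collected after 50 minutes in drug-free medium. The growth protocol shared by all samples also mentions etoposide, a poison of topoisomerase II, but no library used here is labelled with it. The comparison asks whether transcripts of the enzymes that relax and repair DNA differ within the hour after receptor stimulation.

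Topoisomerases change the winding of DNA by cutting it, passing strands and resealing it, and during the cut the enzyme is joined to DNA through a tyrosine. Type I enzymes cut a single strand and type II enzymes cut both strands. When the enzyme stays trapped on DNA, the phosphodiesterases TDP1 and TDP2 remove it from the broken end. In neurons these enzymes are known for relaxing the supercoils that transcription produces, above all in long genes and in genes switched on by activity.

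Libraries are numbered by replicate below and held 15417234 to 19183999 counted reads. Fos, Npas4, Arc and Egr1, genes induced by neuronal activity, were all higher in the NMDA libraries, with summed levels of 42.7 to 59.1 CPM (read counts scaled to library size) in the control libraries against 303 to 428 CPM. Neuron markers were abundant, with summed levels of 6331 to 7255 CPM over 11 genes. The cultures also held transcripts of other cells, with 3671 to 5342 CPM over 10 astrocyte genes, 572 to 1279 CPM over 6 progenitor genes and 506 to 886 CPM over 5 genes of oligodendrocyte precursors. Both libraries of replicate 1 stood apart in their oligodendrocyte genes (211 and 188 CPM over 5 genes, against 69.3 to 78.9 CPM in the other 4 libraries). Microglial genes summed to 3.17 to 4.61 CPM, and 5 endothelial genes to 12.3 to 23.9 CPM, most of it from Kdr, while Cldn5 of that list had no count in any library. In such bulk samples fewer cells of a type and less RNA per cell cannot be told apart.

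The type II enzymes are described first. Top2b encodes TOP2B, the form found in postmitotic cells including neurons, and Top2a encodes TOP2A, the form of dividing cells that separates chromosomes at mitosis. Top2a (ENSMUSG00000020914) lies on chromosome 11 from 98992943 to 99024189 on the minus strand of GRCm38, and Top2b (ENSMUSG00000017485) on chromosome 14 from 16365179 to 16435462 on the plus strand. Their promoters are shown because the comparison of Top2a with Top2b, and of Top2a with genes of cycling cells, is the pattern the levels below turn on. The sequences are the 250 bases before the RefSeq start on GRCm38.p6, at chr11:99024190-99024439 (minus strand) for Top2a and chr14:16364956-16365205 (plus strand) for Top2b. Capitals mark CCAAT, the box bound by NF-Y, or its reverse complement ATTGG, and TTTGAA, the cell cycle homology region, or its reverse complement TTCAAA.
Top2a: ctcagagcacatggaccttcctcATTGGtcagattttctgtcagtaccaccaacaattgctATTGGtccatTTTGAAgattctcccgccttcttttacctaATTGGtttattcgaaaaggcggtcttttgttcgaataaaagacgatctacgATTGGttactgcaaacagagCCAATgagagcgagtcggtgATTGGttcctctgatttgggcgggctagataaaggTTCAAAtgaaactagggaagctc
Top2b: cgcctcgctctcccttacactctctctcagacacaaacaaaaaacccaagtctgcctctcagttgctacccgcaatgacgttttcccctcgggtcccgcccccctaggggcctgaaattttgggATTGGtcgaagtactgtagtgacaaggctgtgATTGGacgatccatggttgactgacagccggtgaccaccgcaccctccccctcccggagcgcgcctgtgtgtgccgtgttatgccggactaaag
CCAAT occurred 6 times on either strand in the Top2a window of 300 bases (250 before and 50 after the start). At least 1 CCAAT was held by 37.4% of the 32851 promoter windows from RefSeq, and 6 or more by 0.0791%. The Top2b window held 2, a number reached by 11.7% of windows. TTTGAA occurred 2 times at Top2a, with the nearer match starting 23 bases before the start, and no match was found at Top2b. At least 1 TTTGAA was held by 17.9% of windows and at least 2 by 2.31%. Tdp1 held 1, starting 39 bases before the start. Among the 16 genes chosen as markers of cycling cells 13 had a promoter in the table, of which 11 held CCAAT and 7 held TTTGAA. Cdk1 and Mki67 held the most CCAAT among them, with 3. The promoter of Top1 held 3 GC boxes (GGGCGG), a number reached by 10.7% of windows. The cyclic AMP response half-site TGACG occurred 1 time each at Top1, Top2b and Top3b and in 20.8% of all windows. Of the 8 genes 5 had a promoter in the table. The matches describe letters and are not shown here to be bound.

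Top2b was the most abundant of the 8 in CPM. It stood at 345, 375 and 390 CPM in controls 1, 2 and 3 and at 382, 386 and 373 CPM in NMDA libraries 1, 2 and 3. The NMDA libraries lay within the range of the controls, and Top2b had the smallest spread of the 8 among NMDA libraries, with a coefficient of variation of 1.73%. Among controls its coefficient was 6.27%, above those of Tdp1 (5.32%) and Tdp2 (5.82%). The log2 change was 0.04 ± 0.09 (SE) with a 95% interval from -0.15 to 0.24 (edgeR adjusted p = 0.871). Within pairs of the same replicate number it was 0.04 ± 0.08, with an interval from -0.12 to 0.20. Over 1793 bases its exons overlap those of Rarb, a retinoic acid receptor gene on the other strand, which had 135 to 216 counts against 5699 to 7399 for Top2b. Without a stated strand setting, reads from that stretch cannot be assigned.

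Top2a stood at 104, 143 and 111 CPM in controls 1, 2 and 3 and at 100, 146 and 125 CPM in NMDA libraries 1, 2 and 3. The groups overlapped over nearly their whole range, and the replicate 2 library was the highest of both groups. The log2 change was 0.05 ± 0.15 with a 95% interval from -0.30 to 0.40 (edgeR adjusted p = 0.913), and within pairs the interval narrowed to -0.10 to 0.20. Top2a differed more between replicate numbers than between the groups. Its coefficient of variation was 17.3% among controls and 18.4% among NMDA libraries, where counting error alone is at most 2.59%.

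The share of Top2a among the type II transcripts was computed per length. Per kilobase of merged exons, Top2a made up 32.9%, 38.2% and 31.6% of the summed Top2a and Top2b level in controls 1, 2 and 3 and 29.9%, 38.0% and 35.1% in NMDA libraries 1, 2 and 3. The mean shares were 34.2% ± 3.51 (SD, n = 3) without NMDA and 34.3% ± 4.12 (SD, n = 3) after it. These are values of whole cultures, in which genes of cycling cells were also measured, and not of neurons alone. Top2b per kilobase thus exceeded Top2a by a factor of 1.62 to 2.35 over the 6 libraries. The log2 ratio of Top2a to Top2b differed by 0.00 between the groups (two-sided exact permutation p = 1), with differences of -0.20, -0.01 and 0.23 in pairs 1, 2 and 3. The factor depends on the length used. It was 1.33 to 1.92 per kilobase of the longest transcript and 2.49 to 3.61 per kilobase of the longest coding sequence, with Top2b above Top2a in all 6 libraries each time.

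Top2a moved from library to library with genes of cycling cells. All 16 such genes were measured well enough to be tested, and 0 passed in either edgeR fit (0 at an unadjusted p under 0.05 in the group-only fit, 0 in DESeq2). Mki67, which marks proliferating cells, had means of 121 ± 25.3 CPM without and 124 ± 18.8 CPM after NMDA, Cdk1, the mitotic kinase, of 21.3 ± 3.57 and 23.2 ± 5.19 CPM, and Ccnb1, its cyclin partner, of 23.6 ± 5.56 and 24.1 ± 3.74 CPM (SD, n = 3). The 16 genes summed to 489, 643 and 486 CPM in controls 1, 2 and 3 and to 481, 658 and 551 CPM in NMDA libraries 1, 2 and 3. Like Top2a, 16 of the 16 were highest in replicate 2 among the controls and 16 of the 16 among the NMDA libraries. The share of all tested genes with this order was not counted. It was not particular to the list, since Nes, Kdr, Acta2 and Tagln, markers of other cells, were also highest in replicate 2 of both groups. As a description over these 6 libraries, log2 CPM of Top2a correlated with that of the 16 genes at a Pearson r of 0.56 (Birc5) to 0.99 (Cdk1), with a median of 0.94, against a median of -0.03 for all genes compared. The same libraries, depths and replicate numbers enter each of these values. The smallest unadjusted p in this list belonged to Pcna (log2 0.12 ± 0.10), the clamp of DNA replication, and Mcm2 (0.17 ± 0.16), part of the replicative helicase, and neither passed.

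**Figure D1:**
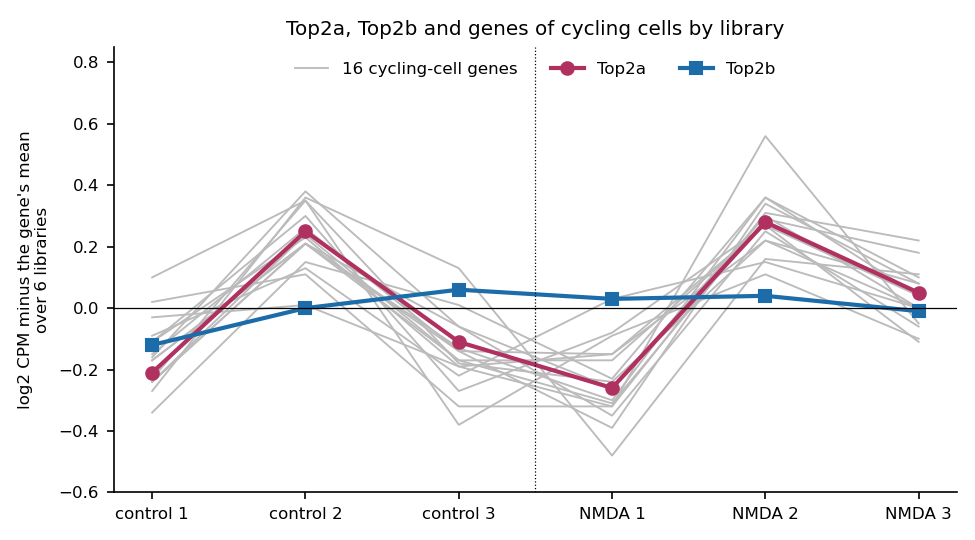
Log2 CPM of Top2a, Top2b and 16 genes of cycling cells (grey lines) in each library, minus each gene's mean over the 6 libraries. Top2a lies at 0.25 and 0.28 in the replicate 2 libraries and at -0.21 and -0.26 in the replicate 1 libraries, within the grey lines, while Top2b stays between -0.12 and 0.06.

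Beside Top2b, a pair of neuron markers had changes of opposite sign. Rbfox3, which encodes the neuronal nuclear protein NeuN, had a mean of 95.5 ± 7.87 CPM (SD) without NMDA and a mean of 127 CPM, with a range of 108 to 137 CPM, after it (0.41 ± 0.11, edgeR adjusted p = 0.180). Within pairs Rbfox3 rose (0.40 ± 0.08, adjusted p = 0.00148). Map2, a dendritic microtubule protein, had means of 2473 ± 355 and 2064 ± 292 CPM (-0.26 ± 0.15, adjusted p = 0.466, and 0.0715 within pairs).

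Type IB enzymes relax supercoils by nicking a single strand, TOP1 in the nucleus and TOP1MT in mitochondria. Both Top1 and Top1mt were higher in the NMDA library of every pair, but neither passed without the pairing and Top1 alone passed with it. Top1 (ENSMUSG00000070544, chromosome 2 from 160645888 to 160722764, plus strand) stood at 153, 203 and 190 CPM in controls 1, 2 and 3 and at 198, 228 and 230 CPM in NMDA libraries 1, 2 and 3. The groups overlapped, because control 2 exceeded NMDA library 1. The group means were 182 ± 25.8 and 218 ± 17.7 CPM (SD, n = 3), a log2 change of 0.26 ± 0.12 (edgeR adjusted p = 0.363). Within pairs the differences were 0.37, 0.16 and 0.28, and Top1 rose by 0.27 ± 0.07, a factor of 1.20 with a 95% interval of 0.11 to 0.42 on the log2 scale (edgeR adjusted p = 0.0210, and 0.0235 in DESeq2 with the same block). Without the replicate 2 libraries the paired value was 0.32 and no longer passed (adjusted p = 0.0955), and without those of replicate 1 it was 0.23 (adjusted p = 0.0287).

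Top1mt (ENSMUSG00000000934, chromosome 15 from 75657035 to 75678800, minus strand) was among the lowest of the 8, with 3.63, 2.45 and 3.17 CPM in controls 1, 2 and 3 and 4.29, 4.19 and 4.69 CPM in NMDA libraries 1, 2 and 3. It was the 1 gene of the 8 whose groups did not overlap, a separation that 19.3% of all tested genes showed (8.18% with NMDA higher). The log2 change of 0.51 ± 0.21 did not pass (adjusted p = 0.331), nor did the paired change of 0.52 ± 0.18 (adjusted p = 0.0651). Its lowest library held 44 counts, for which counting error alone is 15.1%. DESeq2 with the same block gave 0.54, which did not pass (adjusted p = 0.318). Without the replicate 1 libraries the paired edgeR change was 0.67 and passed (adjusted p = 0.0282). Without those of replicate 2 it was 0.41 (adjusted p = 0.340) and without those of replicate 3 it was 0.51 (adjusted p = 0.194), and neither passed. Of 10 genes for the upkeep and transcription of mitochondrial DNA 0 passed without the block, where 0.430% of all tested genes did. Within pairs 1 of the 10 was lower, as were 8.35% of all tested genes. The gene lower within pairs was Polrmt, the mitochondrial RNA polymerase (-0.36 ± 0.12, edgeR adjusted p = 0.0448).

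Type IA enzymes resolve single-stranded and knotted structures, TOP3A in the nucleus and mitochondria and TOP3B on DNA and also on RNA. Top3b (ENSMUSG00000022779, chromosome 16 from 16870736 to 16892990, plus strand) stood at 43.0, 35.1 and 30.0 CPM in controls 1, 2 and 3 and at 30.9, 28.5 and 23.7 CPM in NMDA libraries 1, 2 and 3. Each NMDA library was below its control partner, while the group ranges overlapped, since control 3 was lower than NMDA library 1. The means were 36.0 ± 6.52 and 27.7 ± 3.66 CPM (SD, n = 3), a log2 change of -0.38 ± 0.15 that did not pass (edgeR adjusted p = 0.312). Within pairs the differences were -0.47, -0.30 and -0.34, and Top3b fell (-0.37 ± 0.08, 95% interval -0.55 to -0.20, edgeR adjusted p = 0.00539, and 0.0450 in DESeq2 with the same block). It also passed within pairs without any one of the 3 pairs, with adjusted p from 0.0145 to 0.0203. These fits kept only the remaining pairs and shared libraries with one another, so they are not separate evidence. Without the replicate 1 libraries the paired change of Top3b was -0.31. Its exons share 108 bases with Vpreb1 on the other strand, which had at most 3 counts.

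Top3a (ENSMUSG00000002814, chromosome 11 from 60740058 to 60777365, minus strand) stood at 7.26, 6.73 and 5.06 CPM in controls 1, 2 and 3 and at 6.24, 6.61 and 5.49 CPM in NMDA libraries 1, 2 and 3. The NMDA libraries lay within the control range, and the log2 change was -0.06 ± 0.18 with an interval from -0.47 to 0.36 (adjusted p = 0.922). Per kilobase of merged exons, the log2 ratio of Top3b to Top3a was 1.69, 1.51 and 1.69 in controls 1, 2 and 3 and 1.43, 1.23 and 1.24 in NMDA libraries 1, 2 and 3. The groups of this ratio did not overlap, with a mean difference of -0.33 and a two-sided exact permutation p = 0.1, the smallest that 3 against 3 libraries can give (0.333 adjusted over the 5 ratios tested). Of 10 partners of topoisomerase III, among them Blm, Tdrd3 and Fmr1, 0 passed without the block, where 0.430% of all tested genes did. Within pairs 1 of these partners was lower, as were 8.35% of all tested genes. The partner lower within pairs was Recql5, a helicase that binds RNA polymerase II. It had means of 13.6 ± 2.27 and 10.0 ± 0.258 CPM (-0.43 ± 0.12 within pairs, edgeR adjusted p = 0.0195).

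Neither phosphodiesterase gene passed in either fit. TDP1 frees the end left by TOP1 and TDP2 the end left by TOP2. Tdp1 (ENSMUSG00000021177, chromosome 12 from 99884517 to 99955219) was between 15.2 and 16.9 CPM in the controls and at 16.2, 13.8 and 13.6 CPM in NMDA libraries 1, 2 and 3. NMDA libraries 2 and 3 lay below all controls and NMDA library 1 lay among them (-0.14 ± 0.12, interval -0.42 to 0.13, adjusted p = 0.637). Tdp2 (ENSMUSG00000035958, chromosome 13 from 24831679 to 24842153) stood at 28.9, 26.9 and 25.7 CPM in controls 1, 2 and 3 and at 28.0, 26.5 and 27.0 CPM in NMDA libraries 1, 2 and 3, all within the control range. Its log2 change was 0.00 ± 0.10 with an interval from -0.22 to 0.22. The log2 ratio of Tdp2 to Tdp1 averaged 2.04 ± 0.09 without and 2.19 ± 0.10 after NMDA (SD of 3 libraries each). The exact permutation test, two-sided, gave p = 0.2 (adjusted 0.333).

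**Figure D2:**
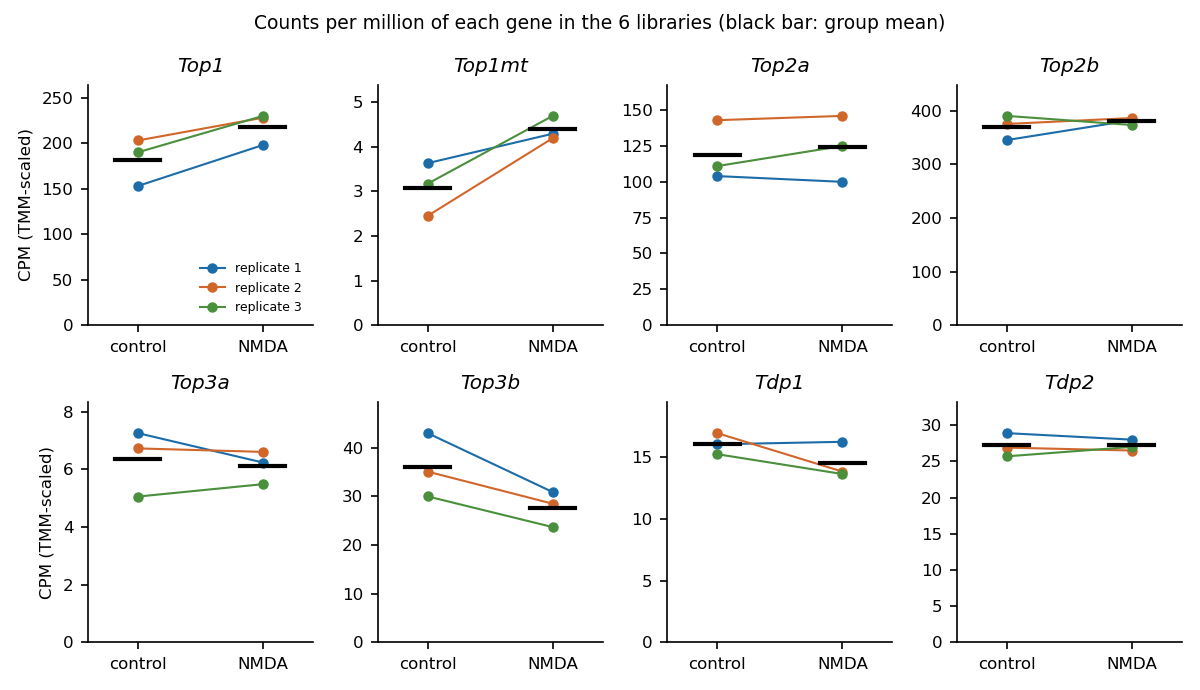
CPM of each of the 8 genes in the 6 libraries, with each vertical axis starting at 0, points joined by replicate number and black bars at the group means. The NMDA point lies above its control in all 3 pairs for Top1 and Top1mt and below it for Top3b, and the lines of Top2a lie apart by replicate number more than by group.

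Counted together, 0 of the 8 genes passed in the group-only edgeR fit, where 0.430% of all tested genes did (0.376% higher and 0.0546% lower). At an unadjusted p under 0.05 that fit found 3 (Top1, Top1mt and Top3b), as it did 13.7% of all tested genes, and DESeq2 and limma-voom without the block called 0. DESeq2 called 2.22% of the genes for which it gave an adjusted p. With the block 2 of the 8 passed, Top1 higher and Top3b lower, beside 5.65% of all tested genes higher and 8.35% lower (7.28% either way in DESeq2 with the block). The median log2 change of the 8 was 0.02 in both fits, against -0.0054 and -0.004 over all tested genes. In 3 of the 8 (Top1, Top1mt and Top3b) the difference had the same sign in all pairs, as in 48.2% of all tested genes.

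**Figure D3:**
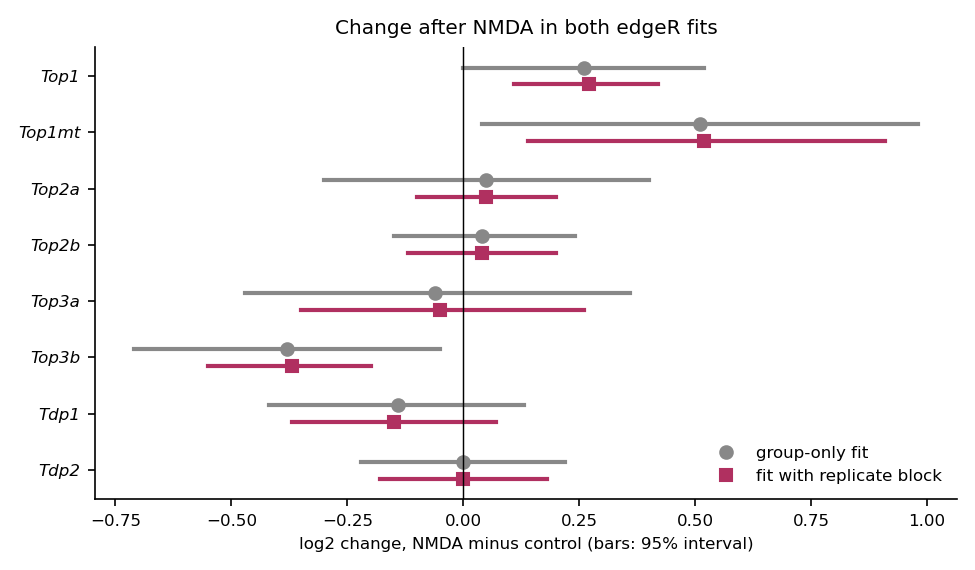
Log2 change (NMDA minus control) of the 8 genes with 95% intervals, in the group-only edgeR fit (grey circles) and in the fit with replicate number as a block (red squares). Estimates barely move between the fits while the intervals narrow. The paired intervals of Top1 (0.11 to 0.42), Top1mt (0.14 to 0.91) and Top3b (-0.55 to -0.20) lie to one side of 0. So do the group-only intervals of Top1mt (0.04 to 0.98) and Top3b (-0.71 to -0.05), while that of Top1 runs from 0.00 to 0.52. The intervals are not adjusted for the number of genes tested, and Top1mt passed in neither fit.

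Levels of different genes were compared per kilobase. With merged exons as the length the order over all 6 libraries was Top2b (25.7 CPM per kilobase), Top1 (19.2), Top2a (13.5), Tdp2 (8.27), Top3b (3.79), Tdp1 (1.91), Top1mt (1.83) and Top3a (1.35). Top2b ranked above all but 12.1% of tested genes, and Top3a below 77.0% of them. The ranges of Top1 and Top2a overlapped, although Top1 was above Top2a in all 6 libraries. By this length the ranges of Tdp1 and Top1mt over all 6 libraries overlapped, with an order that differed between the groups. Tdp1 was higher in controls 1, 2 and 3 (2.01, 2.12 and 1.90 against 1.78, 1.20 and 1.55). Top1mt was higher in NMDA libraries 1, 2 and 3 (2.10, 2.05 and 2.30 against 2.02, 1.73 and 1.70). The ranges of Top1mt and Top3a also overlapped. All other neighbours had separate ranges. Per kilobase of the longest transcript, Top1 (52.0) came before Top2b (36.3) in all 6 libraries, and per kilobase of the longest coding sequence in 5 of 6 (87.1 against 77.6), while the other 6 genes kept their places. By both of these lengths Tdp1 was above Top1mt in all 6 libraries (3.87 against 1.96 and 8.37 against 2.10), with separate ranges. The merged exons of Top1 span 10426 bases and its longest transcript 3856. The order of Top1 and Top2b is therefore set by the choice of length. The log2 ratio of Top1 to Top2b, in which the length cancels between groups, was higher in the NMDA library of every pair (0.22, 0.12 and 0.34). The mean difference was 0.23. A two-sided exact permutation test, which compared the groups without the pairs, gave p = 0.2 (adjusted 0.333). The log2 ratio of Top1mt to Top1 differed by 0.26 (p = 0.5 in the same exact permutation test, adjusted 0.625) and by -0.13 in pair 1.

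**Figure D4:**
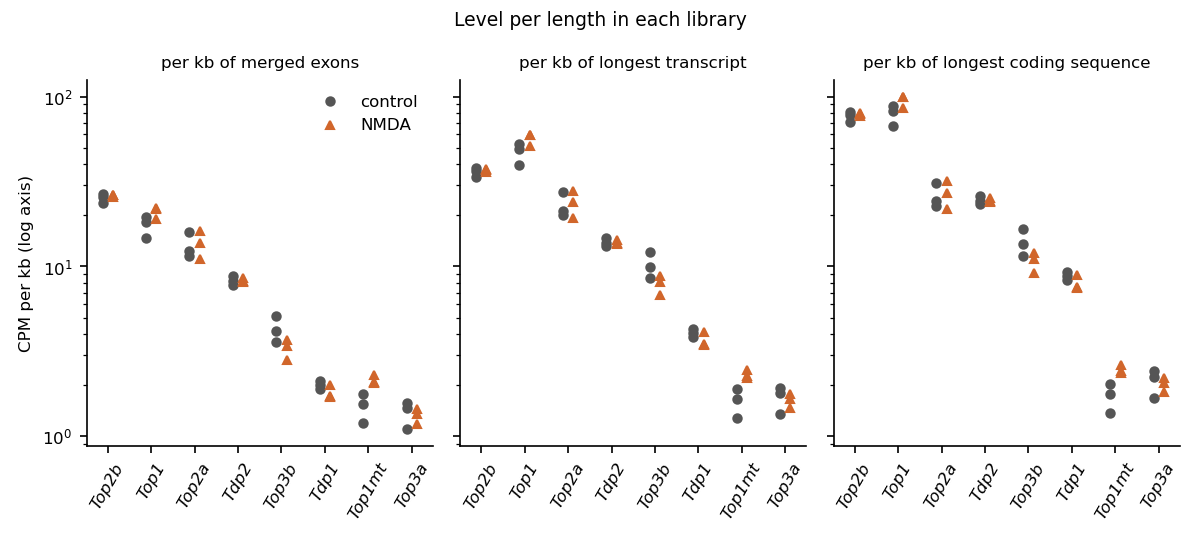
CPM per kilobase of each gene in each library on a log axis, with controls as grey circles and NMDA libraries as orange triangles, for 3 choices of gene length. Top2b leads with merged exons (25.7 against 19.2 for Top1) and Top1 leads with the longest transcript (52.0 against 36.3), and Top3a has the lowest mean in all panels.

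The other genes that act with these enzymes included none that passed as higher in either edgeR fit. Over the 6 lists of partners and repair factors, 59 genes in all, 0 passed in the group-only fit (4 at an unadjusted p under 0.05, where 13.7% of all tested genes lay, and 0 in DESeq2), and 5 were lower within pairs. That is 8.47% of the 59, beside 8.35% of all tested genes. Their median log2 change was -0.01 in both fits. Of 14 genes that process and join double-strand breaks, 2 fell within pairs. Dclre1c, which encodes the nuclease Artemis, had means of 13.8 ± 0.902 and 9.26 ± 2.58 CPM (-0.60 ± 0.13 within pairs, adjusted p = 0.00298), and Atm, the kinase that signals such breaks, had means of 28.0 ± 5.20 and 22.5 ± 2.47 CPM (-0.31 ± 0.09, adjusted p = 0.0262). Of 8 condensin subunits, the partners of TOP2A in mitotic chromosomes, 1 fell within pairs, Ncapd3 (-0.26 ± 0.08, adjusted p = 0.0364).

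No gene passed in the other pair of lists. The 7 genes for the single-strand break repair that TDP1 feeds had a median log2 change of 0.00, and among them Lig3, the ligase of that pathway, had a log2 change of -0.09 ± 0.09 (edgeR adjusted p = 0.685). The 10 modifiers and binding partners of TOP1 and TOP2 had a median of 0.03, and among them Sumo3, a small modifier protein, had a log2 change of 0.09 ± 0.08 (edgeR adjusted p = 0.651).

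Markers of other cells also moved within pairs, where 5.65% of all tested genes passed as higher and 8.35% as lower. Of 10 astrocyte genes 7 rose, with Gfap (0.29), Aqp4 (0.32), Sox9 (0.31) and Gja1 (0.32) having the smallest p, and their summed level was 3671 to 4087 CPM without and 3984 to 5342 CPM after NMDA. Of 6 progenitor genes 3 rose, Nes (0.37), Sox2 (0.22) and Vim (0.34). The summed levels of this list were 572 to 895 and 655 to 1279 CPM, and Vim (769) and Nes (319) made up most of the highest. Hes5 (-0.69) and Eomes (-0.05) had negative changes and Pax6 (0.06) a positive one, none of which passed. Of 7 fibroblast and mural genes 2 rose, Tagln (0.67) and Acta2 (0.56), with summed levels of 112 to 150 and 142 to 258 CPM. Of 11 neuron genes 4 rose, Rbfox3, Tubb3 (0.30), Nefl (0.33) and Nefm (0.49), and of 5 oligodendrocyte genes 1 fell, Mog (-0.65). Of the genes of oligodendrocyte precursors, microglia and endothelium 0 passed, but only 2 of 6 microglial and 2 of 5 endothelial genes were tested. None of these markers passed in edgeR without the block, and DESeq2 without it called 1 neuron gene. The part of these shifts in the changes of Top1 and Top3b was not tested.

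The genes whose log2 CPM ran most like that of a member over the 6 libraries were found among 12679 genes. With so few libraries high values are common, and 95 genes exceeded 0.95 for Top1, 70 for Top2a, 23 for Top2b and 364 for Top3b. Closest to Top1 were Ints4 (Pearson r = 0.998), Dek (0.996) and Map7d1 (0.993). Closest to Top2a were Cflar (0.992), Ccnf (0.989), which encodes cyclin F, and Eya1 (0.988). Cdk1 followed Top2a at 0.987 and Ccnb1 at 0.968, with Mki67 at 0.816. Closest to Top2b were Nucks1 (0.988), Mipol1 (0.985) and Polr2b (0.978), while Cdk1 stood at 0.325, Rbfox3 at 0.412 and Map2 at -0.594. Closest to Top3b were Gigyf1 (0.997), Ddx17 (0.997) and Mettl23 (0.995), whose log2 changes were -0.68, -0.31 and -0.29.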

How the data were processed

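Libraries were stranded, mRNA-selected and read from a single end, per the labels' protocols. The protocol mentions 2 biological replicates, but each group has 3 samples. Nothing says that these are separate cultures, so p-values cover only the spread between samples, which may be technical. The authors deposited raw counts of reads for each gene. Trimmomatic, TopHat and HTSeq are named in the submitters' processing notes, with mm10 and GRCm38.p6, while the sources used here give no version, annotation or strand setting. Rows without a symbol (2153, with 0.219% to 0.246% of a library's counts) carry a gene identifier and stayed in the tests.

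Counts were tested with edgeR 4.0.16 in R 4.3.3 (minimum count 10, minimum total 15, TMM scaling, robust quasi-likelihood F tests, group as the only term) with Benjamini-Hochberg adjustment over all 14642 tested genes and a threshold of 0.05. Normalised levels (CPM, counts scaled to library size) were computed here with TMM factors. Intervals use the quasi-likelihood standard error and moderated degrees of freedom. Libraries with the same replicate number deviated together from their group means (r of 0.5200, 0.3712 and 0.4715), so equal numbers were treated as pairs. The other combinations had r from -0.3916 to -0.0328. Centring on the group means pushes these below 0 once the same-number r is positive, so they are not separate evidence. This pairing comes from the data, not the labels. Fits with the number as a block (within pairs) have 2 residual degrees of freedom against 4. Lengths and positions came from GENCODE M21 on GRCm38, which held 14489 of the tested identifiers, and promoters from RefSeq on GRCm38.p6. Ratios used counts plus 0.5 and exact permutation tests of the groups that ignored the pairs. Alternatives were DESeq2 1.42.0, limma-voom 3.58.1, other scalings and filters, GC and length offsets (mgcv 1.9.3) and libraries left out. The edgeR script was tested on simulated counts.

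The 8 genes and all lists were chosen with earlier results of these data known. Genes named beside the 8 are, for each list, up to 4 called in either fit by smallest paired p, or else the 2 with the smallest unpaired p, with Mki67, Cdk1, Ccnb1, Rbfox3 and Map2 fixed by name, and the 3 genes of highest Pearson r. Blm, Tdrd3, Fmr1, Birc5, Cldn5, Rarb and Vpreb1 were named outside this rule. Some genes that the rule names are not reported here.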

Additional observations from a re-analysis of the deposited data

How the results depend on the processing

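Without the block the number of the 8 genes called stayed at 0 under the other scalings (upper quartile, DESeq2 size factors), limma-voom, DESeq2, both other filters and each library left out in turn. With the replicate block it was 2 in edgeR, 2 in DESeq2, 2 with DESeq2 size factors and 2 with GC and length offsets, each time Top1 and Top3b. With both libraries of one number left out of the blocked fit it ranged from 1 to 3. Without those of replicate 2 only Top3b passed, and without those of replicate 1 Top1mt passed as well. With the replicate block 5 genes of the 6 pathway lists were called against 0 without it. GC and length offsets moved Top1 from 0.27 to 0.35 and Top2b from 0.04 to 0.15, and Top2b still did not pass (adjusted p = 0.143). Over single libraries left out without the block, Top1 ranged from 0.15 (without control replicate 1) to 0.35, Top3b from -0.49 to -0.23 (without control replicate 1) and Tdp1 from -0.22 (without NMDA replicate 1) to -0.08 (without NMDA replicate 3), none of which passed. Genes near 0 changed sign. Over the same libraries left out, Top2a ranged from -0.08 to 0.20, Top2b from -0.008 to 0.08, Top3a from -0.19 to 0.05 and Tdp2 from -0.04 to 0.05. Over pairs left out of the blocked fit, Top2b ranged from -0.001 to 0.11, Top3a from -0.11 to 0.05 and Tdp2 from -0.02 to 0.03. Tdp2 was also -0.003 with the CPM filter and -0.005 in the blocked fit with offsets for GC and length. The difference in the log2 ratio of Top2a to Top2b ranged from -0.11 to 0.15 over single libraries left out, and in the replicate block, as the mean of paired differences, it stayed at 0.00. The ratio of Top1mt to Top1 ranged from 0.02 without control replicate 2 to 0.50 without control replicate 1. The cause of these moves was not tested. The low counts of Top1mt and Top3a, 44 to 134 per library, limit what could be seen for them.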
